A study of Arabidopsis thaliana with 3 samples.

Results

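Suberin is a polyester of fatty acid derivatives, glycerol and ferulic acid that is laid down between the plasma membrane and the primary cell wall, where it limits the passage of water and solutes. In roots it is best known from the endodermis and, in older parts, from the periderm. Its aliphatic monomers are made in a series of steps: fatty acids are elongated, oxidised at their terminal carbon or reduced to primary alcohols, and then joined to glycerol or to ferulic acid.

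The genes described here are 9 TAIR10 loci that encode enzymes of these steps, chosen by their locus names, out of 27444 protein-coding genes on the 5 nuclear chromosomes. They are KCS2 (AT1G04220) and KCS20 (AT5G43760), 3-ketoacyl-CoA synthases that elongate fatty acids. CYP86A1 (AT5G58860) and CYP86B1 (AT5G23190) are cytochrome P450 enzymes that hydroxylate the terminal carbon of fatty acids. FAR1 (AT5G22500), FAR4 (AT3G44540) and FAR5 (AT3G44550) are fatty acyl reductases that make primary alcohols. GPAT5 (AT3G11430) is an acyltransferase that joins acyl groups to glycerol 3-phosphate, and ASFT (AT5G41040, RWP1 in the RefSeq annotation) transfers feruloyl groups to hydroxy fatty acids and fatty alcohols. The list holds 5 genes on chromosome 5, 3 on chromosome 3 and 1 on chromosome 1.

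ATAC-seq, which uses the Tn5 transposase to cut and tag open chromatin, was applied to nuclei from roots of Col-0 seedlings at 14 days of age. The plants carried INTACT, a transgene that marks the nuclear envelope so that nuclei can be pulled down on streptavidin, under the constitutive 35S promoter. The nuclei therefore came from all root cell types that express the transgene, and signal from suberised cells cannot be told apart from signal from other cells. There were 3 libraries of this 1 group, which the study calls biological repeats, and no second group, so the values below are given per library with their spread and no test between groups was possible. Per the study's supplement the libraries were made from unequal numbers of nuclei, fewest in library 1 and most in library 3. The study states that the amount of Tn5 was held constant over its range of nuclei. Differences between samples therefore cannot be told apart from differences in input, and an SD over the 3 libraries holds both.

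The libraries held an estimated 9850039, 10223285 and 18130442 reads on the nuclear chromosomes and 26404, 36033 and 34828 accessible sites in libraries 1, 2 and 3. An accessible site is a MACS2 peak that the authors called in 1 library, and a site is called shared where peaks of all 3 libraries overlap by at least 1 bp. Of 43236 merged sites, 20186 were shared. Signal is the mean read count over 100 bp windows centred in a region, divided by the mean over all nuclear windows of that library, so that 1 is the genome average. Library 2 ran higher upstream of genes in general: the median protein-coding gene had a signal of 1.27, 1.49 and 1.28 over the 400 bp before its transcription start site (TSS) in libraries 1, 2 and 3. Over the same region, 12 root marker genes had a median of 1.22 and 9 shoot marker genes a median of 0.623. Both were below the 1.35 of all protein-coding genes, and 4 of the 12 root and 1 of the 9 shoot markers lay above it. Among the root markers the Casparian strip genes CASP1 to CASP5, which mark the endodermis, lay between 0.798 and 2.63, and WOX5 was lowest at 0.583. Among the shoot markers RBCS1A, a Rubisco small subunit gene, stood apart at 2.20.

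The sequences that carry the main contrasts are printed here, on the strand of the gene and 5′ to 3′, from the TAIR10.1 reference of RefSeq. For a site they are 200 bases around the authors' summit of highest fold enrichment, and for a gene with no site the 250 bases before the TSS. Capitals mark matches on either strand to the motifs CACGTG (G-box), ACGTGNC (abscisic acid response element), the AC elements ACCNACC and, in a second form, ACCTAAC (bound by MYB factors) and TTGACN (W-box core, bound by WRKY factors). The KCS20 site, the 1 shared site of the list within 400 bp upstream of a TSS, is chr5:17585184-17585383 on the plus strand. The KCS2 site, from its closest relative in the list and called in libraries 1 and 2, is chr1:1123263-1123462 on the minus strand.
KCS20 site: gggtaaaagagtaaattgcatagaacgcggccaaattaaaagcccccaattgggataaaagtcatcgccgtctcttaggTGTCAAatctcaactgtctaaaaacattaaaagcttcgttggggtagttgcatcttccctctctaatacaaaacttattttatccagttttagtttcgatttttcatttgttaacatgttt
KCS2 site: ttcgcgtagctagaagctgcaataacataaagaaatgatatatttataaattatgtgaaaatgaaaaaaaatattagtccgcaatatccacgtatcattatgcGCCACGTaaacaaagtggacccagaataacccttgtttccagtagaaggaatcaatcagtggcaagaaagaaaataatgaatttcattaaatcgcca
The ASFT site nearest the TSS is chr5:16430955-16431154 on the plus strand and holds a pair of AC elements.
ASFT site: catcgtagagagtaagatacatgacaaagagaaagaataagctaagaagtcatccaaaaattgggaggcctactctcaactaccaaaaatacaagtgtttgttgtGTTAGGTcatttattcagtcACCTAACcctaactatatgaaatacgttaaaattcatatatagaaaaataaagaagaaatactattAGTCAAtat
The 4 shared sites upstream of FAR4 are, from the farthest to the nearest, chr3:16121647-16121846, chr3:16121928-16122127, chr3:16122157-16122356 and chr3:16122355-16122554, all on the plus strand.
FAR4 farthest site: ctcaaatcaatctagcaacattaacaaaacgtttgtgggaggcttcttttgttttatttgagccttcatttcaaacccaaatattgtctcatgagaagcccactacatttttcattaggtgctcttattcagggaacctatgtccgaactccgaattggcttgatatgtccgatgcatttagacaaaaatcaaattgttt
FAR4 next site: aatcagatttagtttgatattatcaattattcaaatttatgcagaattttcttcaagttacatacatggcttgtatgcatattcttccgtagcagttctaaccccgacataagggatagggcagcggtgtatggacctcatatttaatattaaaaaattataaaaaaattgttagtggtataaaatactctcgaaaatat
FAR4 site after it: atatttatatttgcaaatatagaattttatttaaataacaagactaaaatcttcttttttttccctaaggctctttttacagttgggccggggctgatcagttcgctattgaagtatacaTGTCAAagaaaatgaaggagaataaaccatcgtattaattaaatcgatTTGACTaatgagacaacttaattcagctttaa
FAR4 nearest site: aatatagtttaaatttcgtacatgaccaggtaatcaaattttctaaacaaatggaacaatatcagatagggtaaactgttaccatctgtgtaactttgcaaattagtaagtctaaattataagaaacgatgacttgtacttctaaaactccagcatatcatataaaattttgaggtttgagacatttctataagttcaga
The shared site upstream of FAR5, which has the most W-box cores of the sites printed, is chr3:16136223-16136422 on the plus strand.
FAR5 site: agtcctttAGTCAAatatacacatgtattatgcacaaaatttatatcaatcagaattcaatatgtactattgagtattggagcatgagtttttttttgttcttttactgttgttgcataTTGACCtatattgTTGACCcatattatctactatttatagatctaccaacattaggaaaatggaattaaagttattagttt
CYP86A1 and GPAT5, which had no site in any library, are shown by their promoters at chr5:23768112-23768361 on the minus strand and chr3:3595444-3595693 on the plus strand.
CYP86A1 promoter: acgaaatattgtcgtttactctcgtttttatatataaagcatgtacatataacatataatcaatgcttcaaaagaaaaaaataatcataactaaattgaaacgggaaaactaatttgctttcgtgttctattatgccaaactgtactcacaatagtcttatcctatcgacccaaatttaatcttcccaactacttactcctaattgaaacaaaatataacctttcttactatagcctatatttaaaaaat
GPAT5 promoter: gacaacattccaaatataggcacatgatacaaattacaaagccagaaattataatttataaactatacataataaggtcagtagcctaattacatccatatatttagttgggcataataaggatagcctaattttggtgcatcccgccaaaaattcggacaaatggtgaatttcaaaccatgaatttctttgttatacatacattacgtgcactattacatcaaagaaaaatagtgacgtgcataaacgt

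The 9 genes did not share 1 level of accessibility. Their mean signal over the 400 bp upstream ran from 0.619 for CYP86A1 to 2.69 for KCS20, with a median of 1.46, beside a median of 1.35 for all protein-coding genes. The quartiles were 1.03 and 1.57 for the 9 genes, beside 0.807 and 2.02 for all protein-coding genes. By this measure the list was not more spread than genes in general. The medians of the 9 genes were 1.29, 1.79 and 1.18 in libraries 1, 2 and 3, which is 1.02, 1.20 and 0.922 times the median of all protein-coding genes in the same library. In counts, 5, 5 and 3 of the 9 genes lay above the protein-coding median in libraries 1, 2 and 3. Over the nearest 200 bp the medians were 1.21 for the 9 genes and 1.46 for all protein-coding genes, and over 1000 bp they were 1.11 and 1.25, so the order of the 2 medians turned with the length of the region.

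**Figure D1:**
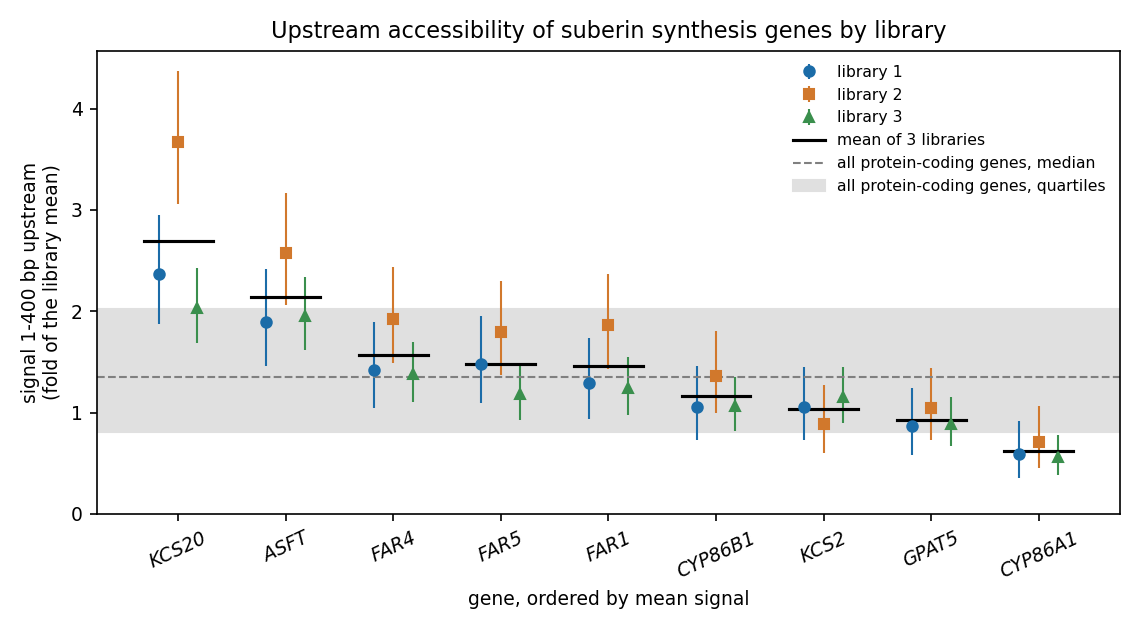
Signal over the 400 bp upstream of the TSS (y axis, fold of the library mean) for the 9 suberin synthesis genes (x axis, ordered by mean), with a point per library, exact Poisson 95% intervals for counting error as vertical lines and the mean of 3 libraries as a horizontal bar. KCS20 (mean 2.69) and ASFT (2.14) lie above the grey band, which spans the quartiles of all protein-coding genes (0.807 to 2.02), and CYP86A1 (0.619) lies below it.

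In the order KCS20, ASFT, FAR4, FAR5, FAR1, CYP86B1, KCS2, GPAT5 and CYP86A1, the library ranges of neighbours overlapped at every step but the last. The lowest GPAT5 library, at 0.863, was above the highest CYP86A1 library, at 0.712. The exact Poisson 95% intervals of these 2 genes still overlapped within each library. In library 3, the deepest, they were 0.665 to 1.15 for GPAT5 and 0.386 to 0.779 for CYP86A1. Compared within each library, KCS20 was above ASFT, ASFT above FAR4, FAR1 above CYP86B1 and GPAT5 above CYP86A1 in all 3. FAR4 was above FAR5, CYP86B1 above KCS2 and KCS2 above GPAT5 in 2 of 3, and FAR5 above FAR1 in 1. Library 2 gave the highest value for 8 of the 9 genes and the lowest for KCS2. The median of all protein-coding genes was also highest in library 2, at 1.49, against 1.27 in library 1 and 1.28 in library 3. For 8 of the 9 genes the exact Poisson 95% intervals of the 3 libraries overlapped. The exception was KCS20, with an interval of 3.06 to 4.37 in library 2, against 1.87 to 2.95 in library 1 and 1.69 to 2.43 in library 3. How often such intervals overlap over all protein-coding genes is not given here, so whether KCS20 is unusual in this was not tested.

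Of the elongases, KCS20 had the highest signal of the list over the 400 bp upstream, while ASFT was higher over 200 bp and FAR4 over 1000 bp. Its upstream signal was 2.37, 3.67 and 2.03 in libraries 1, 2 and 3 (mean 2.69 ± 0.863, SD, n = 3), which ranked at percentiles 84.9, 94.4 and 80.8 among protein-coding genes. Library 2 stood above the others, and without it the mean was 2.20. The signal rose to 1 shared site of 272 bp, 450 to 179 bp upstream of the TSS, with a fold enrichment of 2.55, 3.10 and 2.06 over the MACS2 background in libraries 1, 2 and 3. This enrichment was modest for a site, at percentiles 17.3, 48.2 and 9.88 among all sites of the same library. The summits lay 294, 239 and 224 bp upstream. The −log10 q of the site was 4.02, 8.45 and 3.57, and it no longer counted as shared with a minimum of 5 or with 50% reciprocal overlap.

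KCS20 also differed from the other genes on the 3′ side. Its gene body beyond the first 400 bp had a signal of 1.69, 1.84 and 1.76, and the 500 bp past its end 2.48, 2.75 and 2.37, in libraries 1, 2 and 3. These were at mean percentiles of 93.1 and 94.6 among protein-coding genes, and no site was called in either stretch in any library. A second site lay in the 5′ UTR exon, 115 to 195 bp past the TSS, in library 2 only, where the signal was 3.73, against 1.90 in library 1 and 2.01 in library 3.

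KCS2 encodes the closest relative of KCS20 in the list, with 84.1% identical bases over the aligned coding sequence, yet its upstream signal was 1.05, 0.887 and 1.15 in libraries 1, 2 and 3 (mean 1.03 ± 0.131, SD, n = 3). KCS20 over KCS2 was 2.26, 4.13 and 1.77, so the order of the pair held in all 3 libraries although the size of the ratio did not. KCS2 had no shared site. A site with its summit 577 bp upstream was found in libraries 1 and 2, with fold enrichments of 2.87 and 3.01, and a different site, 269 to 187 bp upstream, was found in library 3 at 2.17. The window signal over the first of these was 1.55, 1.98 and 1.10, and over the second 1.39, 1.38 and 1.64, so the libraries without a call had 1.10 at the first place and 1.39 and 1.38 at the second. Every 61 bp stretch, the length of a read, in either span occurred once in the genome as an exact match. Near matches were not searched, so whether all reads of the pair were placed apart was not tested.

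Of the cytochromes P450, CYP86A1 had the lowest upstream signal of the list. The signal was 0.588, 0.712 and 0.558 in libraries 1, 2 and 3 (mean 0.619 ± 0.0820, SD, n = 3), at percentiles 15.6, 20.6 and 12.7 among protein-coding genes. No library had a site anywhere from 2000 bp upstream of the TSS to 500 bp past the gene end. The highest 100 bp window of that span averaged 1.09 times the library mean, and 7.19% of protein-coding genes had a lower highest window. The mean was 0.873 in the second kilobase upstream, 0.769 beyond 400 and up to 1000 bp upstream, 0.637 in the gene body beyond the first 400 bp and 0.571 past the gene end. The first 400 transcribed bp were the least even stretch, at 1.05, 0.515 and 1.21 in libraries 1, 2 and 3 (mean 0.924), above the genome average in libraries 1 and 3.

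CYP86B1 had an upstream signal of 1.05, 1.36 and 1.06 in libraries 1, 2 and 3 (mean 1.16 ± 0.173, SD, n = 3). CYP86B1 over CYP86A1 was 1.79, 1.90 and 1.90, above 1 in all 3 libraries. Its site of highest fold enrichment was shared and lay 1255 to 1015 bp upstream, with a signal of 3.27, 4.06 and 2.96 and fold enrichments of 3.88, 4.05 and 2.84. The summit of that site was 23 bp upstream of the TSS of AT5G23200, a gene on the other strand whose TSS is 1214 bp from that of CYP86B1, so the site cannot be assigned to either gene from these data. A second shared site of 122 bp lay in the 3′ UTR exon, with its summit 2646 bp past the TSS and fold enrichments of 3.51, 2.91 and 2.20.

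**Figure D2:**
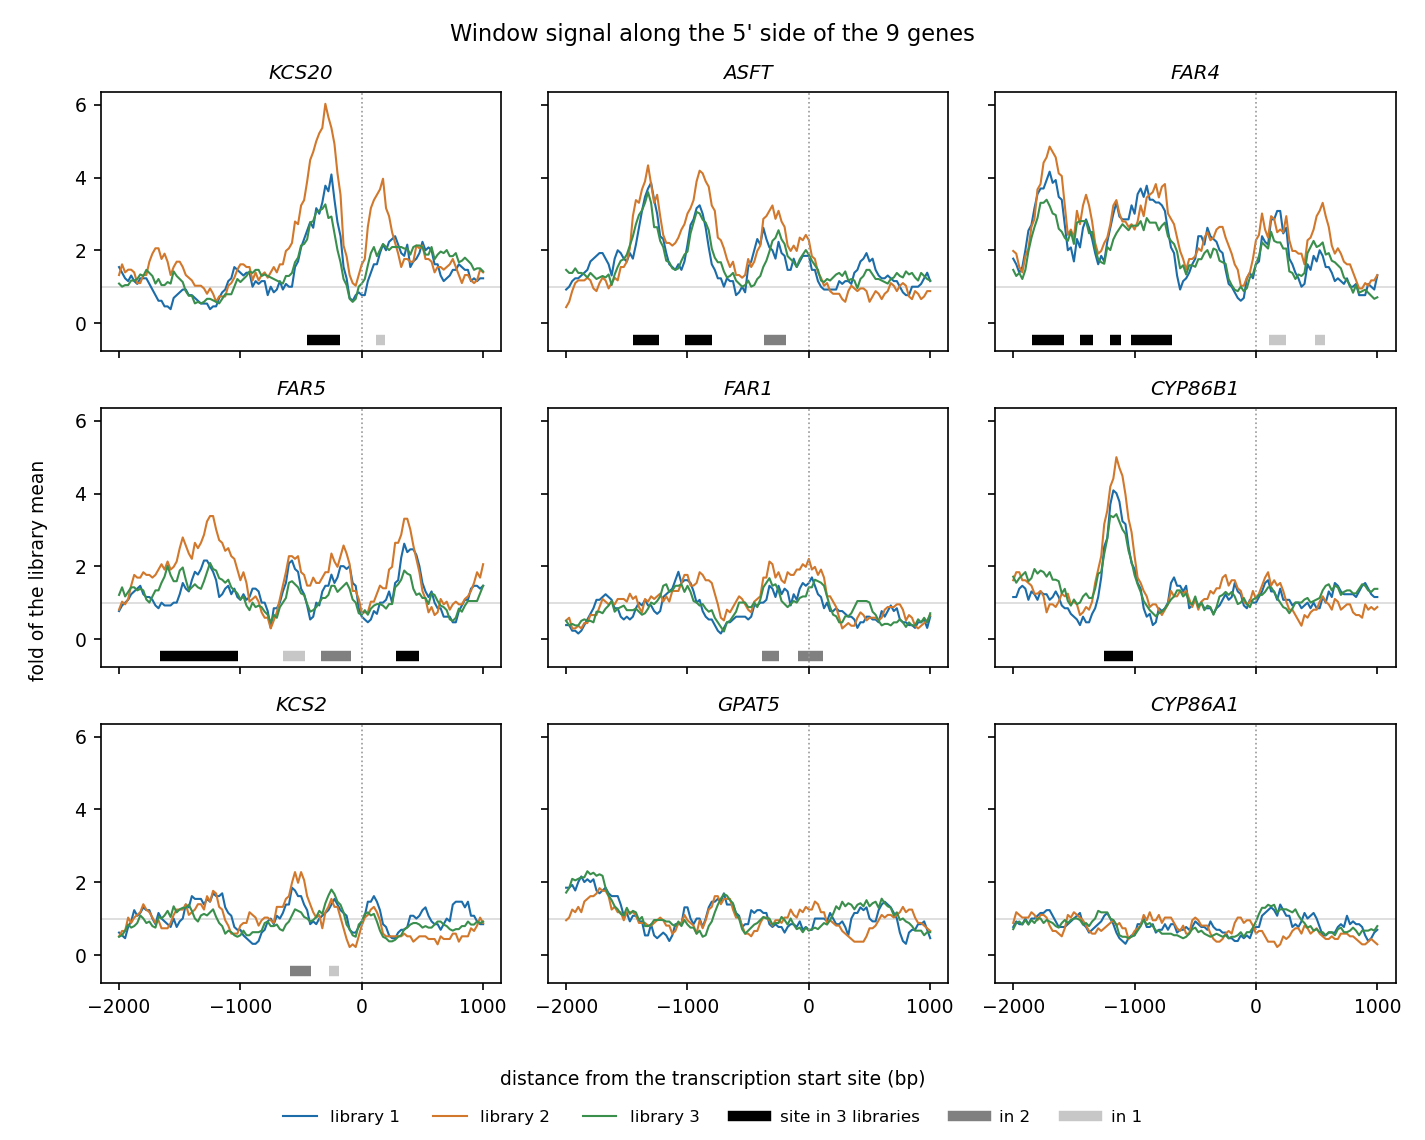
Signal in 100 bp windows (y axis, fold of the library mean) from 2000 bp upstream to 1000 bp past the TSS (x axis), a panel per gene and a line per library, with bars for sites found in 3, 2 or 1 libraries. KCS20 rises to a single site upstream, FAR4 to 4 shared sites, CYP86B1 to 1 site whose summit is 1192 bp upstream, and the GPAT5 and CYP86A1 panels hold no site.

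The reductases FAR4, FAR5 and FAR1 had close upstream levels. FAR4 had 1.42, 1.92 and 1.38 in libraries 1, 2 and 3 (mean 1.57 ± 0.302, SD, n = 3). FAR5 had 1.48, 1.79 and 1.18 (mean 1.48 ± 0.307, SD, n = 3), and FAR1 had 1.29, 1.86 and 1.24 (mean 1.46 ± 0.344, SD, n = 3). The ratio of FAR4 to FAR1 was 1.10, 1.03 and 1.11, and that of FAR5 to FAR1 was 1.14, 0.965 and 0.953, so no order of FAR5 and FAR1 held across libraries. Their coding sequences are 77.0% identical for FAR4 and FAR1, 73.8% for FAR4 and FAR5 and 73.1% for FAR5 and FAR1.

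The 3 reductases differed in what lay farther from the TSS. FAR4 had 4 shared sites upstream, with summits of highest fold at 1679, 1398, 1169 and 971 bp, and this was the most of any gene in the list. Their mean signals were 3.61, 2.82, 2.80 and 3.05. Of all protein-coding genes, 0.885% had 4 or more shared sites within 2000 bp upstream, and FAR4 was 1 such gene of the 9. The second kilobase upstream of FAR4 had a signal of 2.70, 2.97 and 2.42 in libraries 1, 2 and 3, at percentiles 97.0, 96.0 and 96.8 among protein-coding genes. The farthest site began 45 bp past the 3′ end of HIRA (AT3G44530), a histone chaperone gene on the same strand, whose end is 1891 bp before the FAR4 TSS. Over the 1000 bp upstream FAR4 was the highest gene of the list, at 2.11, against 1.57 over 400 bp.

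FAR4 had 3 more sites in 1 library each. A site with its summit 122 bp past the TSS, in the 5′ UTR exon, was called in library 1 and overlapped AT3G06845, a long noncoding RNA gene on the other strand. The window signal there was 2.87, 2.68 and 2.25 in libraries 1, 2 and 3, so libraries 2 and 3 were close to library 1 without a call. A site 484 to 567 bp past the TSS was called in library 2, just before the second annotated TSS of FAR4 at 595 bp. The last lay past the gene end in library 3 and overlapped the noncoding gene AT3G06855.

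FAR5 follows FAR4 on the same strand after 9545 bp and had 2 shared sites. The upstream one was broad, 651 bp after merging, from 1666 to 1016 bp upstream, and the window signal over it was 1.43, 2.50 and 1.64 in libraries 1, 2 and 3. Library 3 held 2 separate peaks there and library 2 a single peak of 500 bp. The other shared site lay 281 to 468 bp past the TSS in the 5′ UTR exon, before the start codon at 484 bp, and had fold enrichments of 3.41, 4.31 and 2.90 in libraries 1, 2 and 3. It was the site of highest enrichment of the 9 genes in library 2, whereas the CYP86B1 site near AT5G23200 was highest in library 1, at 3.88, and the farthest ASFT site in library 3, at 3.27. FAR5 was low on the 3′ side, with 0.154, 0.316 and 0.186 over the 500 bp past its end, at a mean percentile of 3.89. All 440 stretches of 61 bp there occurred once in the genome as exact matches, and near matches were not searched.

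FAR1 had no shared site and none at all in library 1. Libraries 2 and 3 both had a site with its summit of highest fold 362 bp upstream and another with its summit 57 bp past the TSS, with fold enrichments of 2.35 to 2.62. The window signal in libraries 1, 2 and 3 was 1.26, 1.85 and 1.49 over the first and 1.44, 1.97 and 1.39 over the second, so library 1 was below both other libraries at the first site and between them at the second. A further site, in library 3, lay in a coding exon near the 3′ end of FAR1, with its summit 10 bp upstream of the TSS of AT5G22505 on the other strand.

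GPAT5, the acyltransferase, had an upstream signal of 0.863, 1.04 and 0.885 in libraries 1, 2 and 3 (mean 0.930 ± 0.0985, SD, n = 3), at percentiles 29.9, 33.5 and 29.0. It had no site in any library. Its regional means ran from 0.896 in the gene body beyond the first 400 bp to 1.28 in the second kilobase upstream, where its highest window, centred 1769 bp upstream, averaged 1.99. The mean was below the genome average in 4 of its 6 regions, and CYP86A1, the other gene without a site, had a lower mean in each of the 6.

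ASFT, the feruloyl transferase, had an upstream signal of 1.89, 2.57 and 1.95 in libraries 1, 2 and 3 (mean 2.14 ± 0.374, SD, n = 3), at percentiles 73.9, 80.3 and 78.4. ASFT over GPAT5 was 2.20, 2.46 and 2.21. The signal rose at 3 places upstream. The farthest, a shared site with its summit of highest fold at 1329 bp upstream, had a signal of 3.16, 3.66 and 3.04. The next, a shared site with its summit at 899 bp, had 2.61, 3.63 and 2.61. The nearest, with its summit at 249 bp, had 2.03, 2.95 and 2.19 and was called in libraries 2 and 3. The farthest began 177 bp past the 3′ end of AT5G41030 on the same strand. Downstream of the TSS the signal was near the genome average, at 1.16 over the first 400 transcribed bp.

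**Figure D3:**
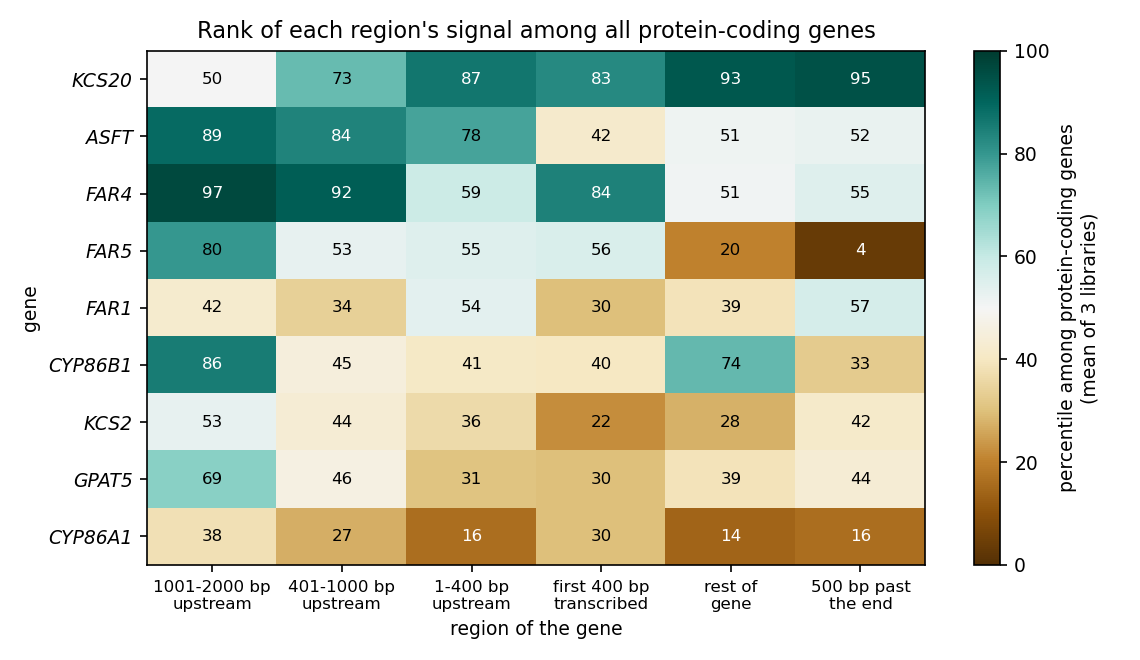
Rank of the signal in each region (columns, 5′ to 3′) of each suberin synthesis gene (rows, ordered by upstream signal) as a percentile among all protein-coding genes, averaged over 3 libraries. FAR4 reaches 96.6 in the second kilobase upstream, KCS20 94.6 past its end, and FAR5 falls to 3.89 past its end.

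Across the list, 24 merged sites lay in the 9 spans, of which 11 were in all 3 libraries, 5 in 2 and 8 in 1. By library there were 14, 20 and 18 sites. By position of the summit, 15 sites were upstream of the TSS, 5 in 5′ UTR exons, 2 in coding exons, 1 in a 3′ UTR exon and 1 past the gene end, and 9 of the 11 shared sites were upstream. The same split over the spans of all protein-coding genes is not given here, so it only describes the list. A shared site in the span was found for 5 of the 9 genes, beside 62.5% of all protein-coding genes, and within 1000 bp upstream for 3 of the 9 (KCS20, ASFT and FAR4), beside 43.2%. No site in any library was found for 2 of the 9, beside 18.1%. In single libraries 6, 7 and 7 of the 9 genes had a site in libraries 1, 2 and 3, beside 67.5%, 78.7% and 75.4% of all protein-coding genes. These shares lie near the background, and per 10 kb of span the 9 genes held 2.14 shared sites, beside 2.17 for all protein-coding genes. Without library 3, sites shared by libraries 1 and 2 lay within 1000 bp upstream of 5 of the 9 genes, beside 44.9% of all protein-coding genes. With a minimum −log10 q of 5, sites shared by all 3 libraries lay there for 0 of the 9, beside 27.4%.

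The sites were of ordinary strength. Their median fold enrichment was 3.19, 3.00 and 2.47 in libraries 1, 2 and 3, beside 3.07, 3.14 and 2.56 for all sites of the same libraries. The highest fold enrichments, 3.88, 4.31 and 3.27, were all below the 90th percentile of sites, at 4.17, 4.47 and 3.44. The highest 100 bp window of the span had a median of 2.61 over the 9 genes, beside 2.89 over all protein-coding genes.

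Of the motifs searched on both strands, the W-box core TTGACN was in 5 of the 11 windows of 200 bp at shared sites, beside 41.1% of all 20186 such windows, and in 5 of the 9 promoters of 250 bp, beside 44.8% of all protein-coding promoters. No shared site of the list held the G-box, the abscisic acid response element or either form of the AC element (ACCNACC, then the form found in the ASFT site), beside 11.8%, 14.0%, 8.0% and 2.69% of all shared sites. Among the promoters the same 4 motifs were found in 0, 0, 0 and 1 of 9, beside 6.49%, 8.57%, 6.10% and 2.46%. The 1 promoter was that of ASFT, which held ACCTAAC at 244 and 224 bp upstream on opposite strands, inside the site called in libraries 2 and 3. ACGTGNC was found once in the KCS2 site of libraries 1 and 2, with its first base 573 bp upstream. It was also found once in the 200 bp window at the FAR1 site past the TSS. That match began 115 bp past the TSS, just outside the called site, which ended at 113 bp. These are matches of letters in the windows named, and nothing was measured about the factors that could bind them. The windows of shared sites had a median GC content of 33.0%, beside 36.0% for all shared sites, and the 250 bp promoters of the 9 genes had 27.6%, beside 31.2% for all protein-coding genes.

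Other genes of the same pathway and of the same families were set beside the list. Of 7 suberin transport and accessory genes, which include the ABC transporters ABCG2, ABCG6 and ABCG20, the median upstream signal was 1.38, with ABCG2 at 2.04 ± 0.212 and ABCG6 at 0.922 ± 0.181 (SD, n = 3) at the ends. A shared site was found in 5 of the 7 spans, beside 62.5% of all protein-coding genes. Of 7 MYB regulators of suberin, the median was 1.02, from 0.542 for MYB39 to 1.31 for MYB41, an abscisic acid responsive activator of suberin genes, and 0 of 7 lay above the protein-coding median. Shared sites within 1000 bp upstream were found for 3 of the 7, MYB41, MYB53 and MYB9, beside 43.2% of all protein-coding genes. Of 8 genes for cutin, the related polyester of the shoot surface, the median was 0.993, from 0.366 for CYP77A6 to 1.70 for GPAT8. A shared site in the span was found for 7 of the 8, beside 62.5% of all protein-coding genes. Within 1000 bp upstream it was found for 1 of the 8, beside 43.2%.

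**Figure D4:**
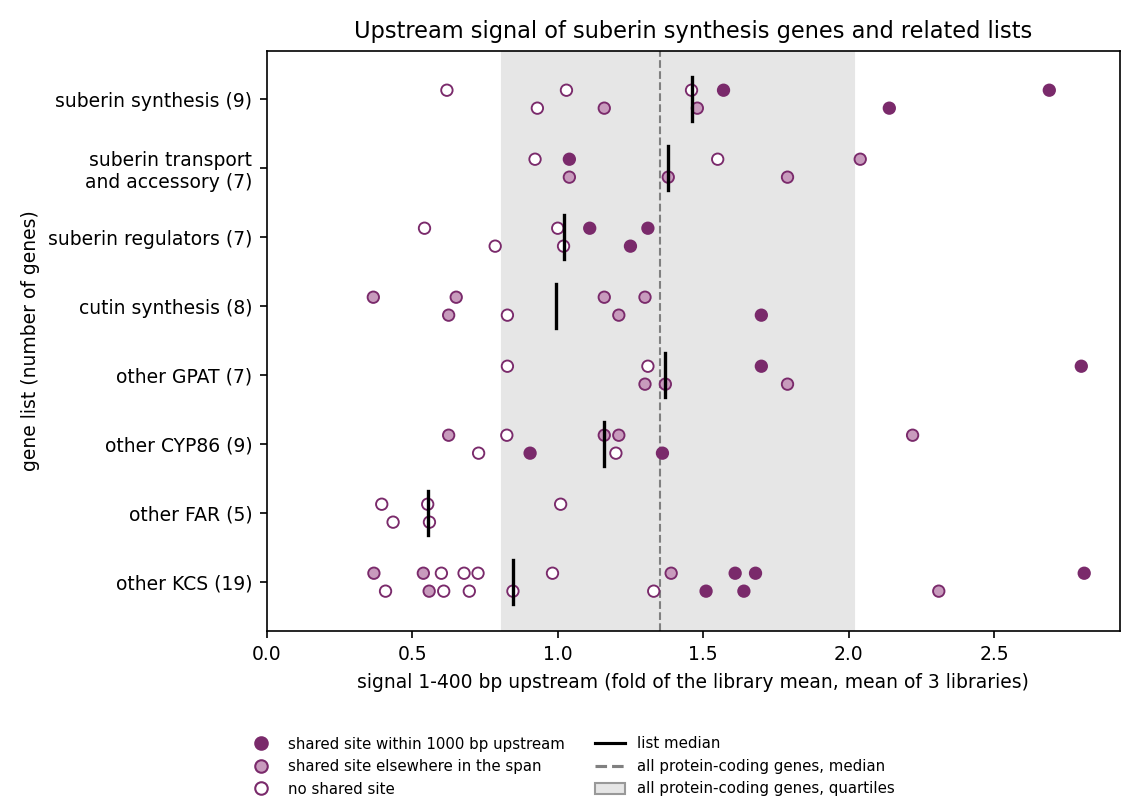
Mean signal over the 400 bp upstream of the TSS (x axis, fold of the library mean, mean of 3 libraries) for each gene of the suberin synthesis list and of related lists (y axis), filled by whether it has a shared site, with list medians as bars. The suberin synthesis list spans 0.619 to 2.69. The other FAR genes (0.395 to 1.01) hold no site, beside 18.1% of all protein-coding genes without one.

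The reductase family was split. The other 5 FAR genes had a median upstream signal of 0.553. All 5 had no site in any library in their spans, beside 18.1% of all protein-coding genes. FAR1, FAR4 and FAR5 had levels of 1.46, 1.57 and 1.48 and sites in at least 2 libraries, though FAR1 had no shared site. Whether the sequence of the other FAR genes occurs once in the genome was not examined. FAR8, which follows FAR5 after 8852 bp on the same strand, was the highest of the others at 0.974, 1.08 and 0.982 in libraries 1, 2 and 3, below all 3 suberin reductases in each library. FAR2, known from pollen wall formation, was the lowest at 0.395 ± 0.0693 (SD, n = 3), and FAR3, known from wax synthesis of the stem, had 0.559 ± 0.110 (SD, n = 3). Of the other families the list holds fewer genes, too few to judge whether they split in this way. The other 19 KCS genes ran from 0.368 for KCS13 to 2.81 for KCS11, around KCS20 and KCS2. The GPAT and CYP86 lists include genes of the cutin list, among them GPAT6, GPAT8 and CYP86A4, and GPAT7 is also an accessory gene. The other 7 GPAT genes ran from 0.827 for GPAT6 to 2.80 for GPAT3. The other 9 CYP86 genes ran from 0.625 for CYP86A4 to 2.22 for CYP86A7. CYP86A1 at 0.619 was thus as low as the lowest of its family.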

How the data were processed

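ATAC-seq libraries from 3 root samples of 1 group were used. The authors aligned single-end reads of 61 bp to TAIR10 with bowtie, discarded reads that fit several places, removed PCR duplicates with SAMtools and called peaks in each library with MACS2 (versions not given in the sources used here). They deposited raw read counts in 100 bp windows every 25 bp, with windows at 0 left out, and peak lists with a score (not used), a fold enrichment (a ratio over the MACS2 background) and −log10 p-values and q-values, also deposited as the authors computed them. For peak calling they shifted and extended each read by fixed lengths without a fragment model. Whether the reads in the window counts were shifted towards the Tn5 cut is not given in the sources used here, so window positions may be off by a few bases. Dropping reads with several locations could lower signal in repeats. Counted as exact matches, all 61 bp stretches of 8 of the 9 spans, and 99.0% of those of FAR5, occurred once in the reference. Near matches elsewhere in the genome were not searched, so loss of reads through them was not tested.

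Absent windows were set to 0. A read covered 6.27, 6.34 and 6.28 windows in libraries 1, 2 and 3, which gave the estimated reads. Upstream regions held 19 to 126 estimated reads per gene and library, and Poisson intervals (95%) cover counting error only. Peaks were merged at 1 bp overlap. Genes were taken from RefSeq TAIR10.1, whose chromosome lengths fit the last windows. Spans ran from 2000 bp upstream to 500 bp past the end. Coding sequences were aligned globally (Biopython 1.88). Other steps used Python 3.11.15, numpy 2.4.6 and scipy 1.17.1, and the signal step was tested on simulated data. The members and lists were chosen with earlier results of these data known. All 9 members are named, with neighbours that share a site and, of each related list, the 2 genes of highest and the 2 of lowest upstream signal or fewer. MYB9, HIRA and AT5G41030 were named after their values were seen. In the accessory list 1 locus was left out because the annotation gives it another name. With 1 group no comparison of conditions and no p-value was made. Alternatives were other regions, scalings, thresholds, overlaps and leaving out each library.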

Additional observations from a re-analysis of the deposited data

How the results depend on the processing

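The number of sites and the median of the list moved with the definition of the region. With the signal scaled to the median upstream signal of all protein-coding genes, the median upstream signal of the 9 genes was 1.08 in place of 1.46, by construction of the scale, and over 1000 bp upstream it was 1.11. The median percentile was 40.1 over 200 bp and 40.8 over 1000 bp, in place of 53.8. Over 1000 bp upstream to the gene end there were 10.7 sites per library and 5 shared sites, and with −log10 q of 5 or more there were 8.67 and 5, in place of 17.3 and 11. With that threshold 3 of the 9 genes had a shared site in place of 5, beside 41.7% of all protein-coding genes, and 0 had one within 1000 bp upstream in place of 3, beside 27.4%. Within 400 bp upstream 1 gene, KCS20, had one, beside 36.6%. The KCS20 site was lost from the shared sites under the stricter threshold and under 50% reciprocal overlap.

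Leaving out each library in turn gave 1.26 to 1.57 for the median signal, 49.4 to 56.8 for the median percentile, 16 to 19 sites per library, 11 to 14 sites in the remaining libraries, 5 to 6 genes with such a site and 3 to 5 with one within 1000 bp upstream, 5 without library 3. Of all protein-coding genes 63.4% to 70.5% had such a site and 42.9% to 50.2% had one within 1000 bp upstream. GPAT5 and CYP86A1 had no site in any library within their spans. The settings only filtered or regrouped the authors' sites, so none could give these genes a shared one. CYP86A1 had the lowest upstream signal under all 7 settings of region and scale. The scalings could not alter this, because CYP86A1 was lowest in each library before scaling. Leaving out windows at 0 kept its value at 0.619, so only the regions could change its place, and it was lowest in each. GPAT5 and KCS2 changed places over 200 bp and before the start codon, and CYP86A1 had 0.709 over 1000 bp and 0.719 before the start codon, in place of 0.619. Of the regions, KCS20 was highest over 400 bp upstream of the TSS and before the start codon, ASFT over 200 bp and FAR4 over 1000 bp. Counting from the start codon was added after seeing the data and gave a median of 1.39, against 1.34 for all protein-coding genes. No paired analysis was possible because all 3 libraries belong to 1 group. Depth limits the low genes: CYP86A1 had 19, 24 and 34 estimated reads upstream in libraries 1, 2 and 3.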
